A study of Homo sapiens with 6 samples.

Results

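MDA-MB-231 cells given the higher dose of CXCL12 and IGF1 were compared with untreated cells of the same experiment, gene by gene, across all mRNAs that came down with tagged ribosomes. The comparison rests on the 2 libraries labelled with the higher dose and the 2 labelled untreated, 4 of the 6 libraries of the series. MDA-MB-231 is an established human triple-negative breast cancer line, used here in a form that carries ribosomal protein L10a fused to EGFP. In translating ribosome affinity purification, an antibody to GFP pulls the tagged ribosomes out of a lysate, and the mRNAs on them are sequenced. Every culture, the untreated ones included, had first been starved in 0.2% serum for 24 h. The higher dose group then received 300 ng/mL CXCL12 together with 100 ng/mL IGF1 for 6 h, and the untreated group received 0 ng/mL of each. The lower dose group (30 ng/mL CXCL12 with 10 ng/mL IGF1) entered the same model fit and is shown only beside these values. Because both factors were given at once, the effect of either alone cannot be told apart. Total RNA was not analysed here, and therefore more of an mRNA in the cell and more of it on ribosomes cannot be told apart either. The 2 libraries of a group, lettered a and b, are biological replicates per the labels.

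CXCL12 is a chemokine that binds the G protein-coupled receptor CXCR4 and guides migrating cells, including breast cancer cells that settle in bone. IGF1 binds the receptor tyrosine kinase IGF1R, and both receptors can switch on the PI3K and AKT kinases. AKT holds the FOXO transcription factors out of the nucleus and activates mTORC1, a kinase that favours translation of ribosomal protein mRNAs, ribosome assembly and cell growth, and that keeps TFEB, an activator of lysosomal genes, in the cytoplasm.

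Reads on genes came to 26255079 and 30280322 in the untreated libraries and 28280141 and 28547442 in the higher dose libraries. Values are CPM, reads scaled to the library's total over tested genes, adjusted by the scaling factor given below. On the total of gene reads, 3 reads, the limit that a count of 0 allows, are worth 0.0991 to 0.114 CPM. Of 13 genes chosen to define this cell line, 12 were above 5 CPM (VIM, CD44, AXL, MET, EGFR and KRT18 among them), while SPARC was below 1 CPM. Their summed level was 9561 and 9339 CPM in untreated cells and 7418 and 7355 CPM at the higher dose. Of the 12 tested, 11 fell and 0 rose, beside 28.2% that fell over all tested genes, with a median log2 fold change of −0.33, and the part of this in the other results was not tested. Of 10 genes known to be low in the line, 7 were below 1 CPM, and ERBB2, EPCAM and GATA3 were above 5 CPM. Of 12 markers of blood, endothelial, fibroblast and liver cells, 3 had no reads in any of the 4 libraries and 9 were below 1 CPM, with a summed level of 22.1 and 23.9 CPM against 16.0 and 18 CPM. CD14 and COL1A1 were the 2 markers above 5 CPM.

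The higher dose moved a large part of the translatome by modest amounts and a smaller part strongly. Of 13548 genes with enough reads to test, 7626 (56.3%) passed the edgeR quasi-likelihood test at a Benjamini-Hochberg adjusted p under 0.05. There were 3805 genes up (28.1%) and 3821 down (28.2%). The scaling centres the fold changes near 0 and so sets this split, which was 3455 up and 4180 down with upper quartile factors. The median absolute log2 fold change of the genes that passed was 0.29. A change of at least 1.5-fold, called strong here, was seen in 935 genes (6.9%), of which 382 rose (2.82%) and 553 fell (4.08%). At least 2-fold changes were seen in 162 genes (1.2%), 60 up (0.443%) and 102 down (0.753%). In 10340 genes (76.3%) both higher dose libraries lay on the same side of both untreated libraries.

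The shift between the groups was several times the shift between replicates. Moving from one untreated library to the other reassigned 1.58% of the reads to other genes, and moving between the higher dose libraries reassigned 1.32%. Between any untreated and any higher dose library 7.26% to 8.31% of the reads were reassigned. The rises summed to 79133 CPM over 6772 genes, and 310 of these genes carried 50% of that sum. The falls summed to −75028 CPM over 6776 genes, and 297 genes carried 50% of it. The 10 largest gains made up 6.71% of all gains and the 10 largest losses 11.1% of all losses, so neither side rested on a handful of mRNAs.

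Calls and strong calls were found at different levels of abundance. In the lowest 10% of tested genes by mean CPM, 12.9% passed the test, and 175 genes passed with a strong change. In the highest 10%, at 159.7 CPM and above, 79.6% passed, but only 43 genes had a strong change, 17 up and 26 down. More reads make a smaller change detectable, so the share of calls by itself says little about size. The median absolute log2 fold change, which the threshold does not set, was 0.35 in the lowest and 0.18 in the highest 10%. The lowest 10% had means of only 0.184 to 1.12 CPM, where counting noise enlarges absolute fold changes. All 87 rises and 88 falls that passed there were strong. The 2 medians and the counts of strong calls therefore do not show that rare mRNAs changed more.

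**Figure D1:**
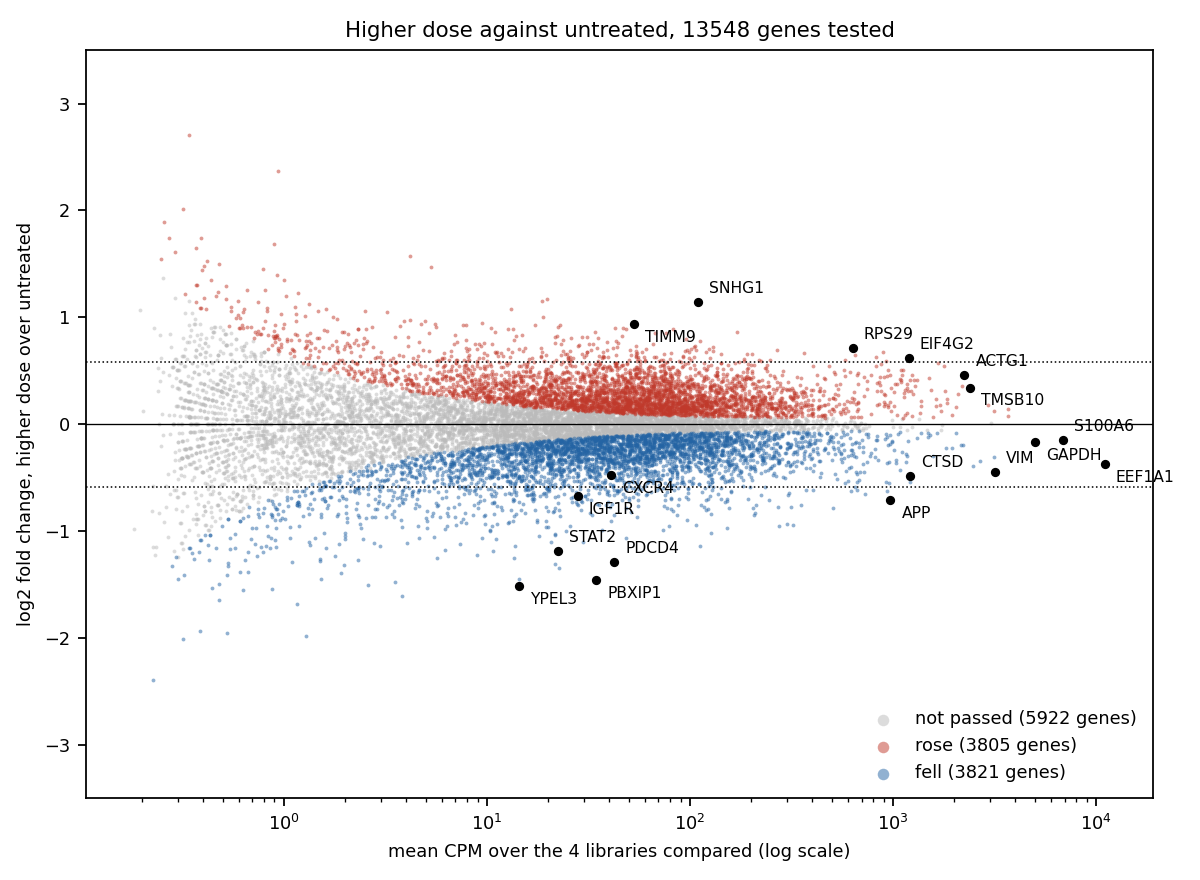
Log2 fold change (higher dose over untreated) against the mean CPM of the 4 libraries compared, on a log scale, 1 point for each of 13548 tested genes, with genes that rose in red, genes that fell in blue, genes that did not pass in grey and dotted lines at 1.5-fold. The strongest changes at 5 CPM or more run from YPEL3 at −1.51 to LOC100128881 (VPS9D1-AS1) at 1.47, and the most abundant mRNAs, such as EEF1A1 and S100A6, lie near or below 0.

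Among genes at a mean of 5 CPM or more, the strongest falls included YPEL3, PBXIP1, KLHL24 and JUP. YPEL3, a small growth suppressor induced by p53 and by FOXO factors, had 22 and 20.5 CPM in untreated cells and 7.77 and 7.09 CPM at the higher dose. Both treated libraries were far below both untreated ones, a 2.86-fold fall (log2 fold change −1.51 ± 0.08 SE, edgeR adjusted p = 8.91e-23). PBXIP1, which binds PBX homeobox factors and oestrogen receptors, went from 51.7 and 49.4 to 19.1 and 17.7 CPM, a 2.75-fold fall (−1.46 ± 0.06 SE, edgeR adjusted p = 4.33e-29). KLHL24, a ubiquitin ligase adaptor that acts on keratins, had 21.2 and 21.0 CPM and then 7.63 and 7.83 CPM. JUP (plakoglobin), which links desmosomes and adherens junctions to the cytoskeleton, had 34.2 and 30.7 CPM and then 12.9 and 12.6 CPM. Neither gene's groups came near each other, at 2.73-fold and 2.54-fold lower.

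CALCOCO1, a receptor for selective autophagy of the endoplasmic reticulum, went from 31.7 and 30.0 to 11.5 and 13.3 CPM. PDCD4, an inhibitor of the initiation helicase eIF4A that is destroyed after S6 kinase signalling, went from 60.5 and 59.6 to 25 and 24.1 CPM. Among the 12 largest falls PDCD4 started highest and, with a 2.45-fold fall, lost the most CPM. RCSD1 had 18.7 and 19.4 CPM against 8.02 and 7.97 CPM. ERBB3, the receptor for neuregulins that signals through PI3K, had 7.99 and 8.05 CPM against 3.19 and 3.55 CPM. CDKN1C (p57), an inhibitor of cyclin-dependent kinases, had 13.8 and 11.3 CPM against 5.85 and 4.85 CPM. These 3 fell 2.39-fold, 2.38-fold and 2.33-fold. STAT2, the interferon signalling factor, had 30.6 and 31.3 CPM against 14.5 and 12.7 CPM. SORBS2 and METTL7A (TMT1A) completed the 12 largest falls at −1.18 each.

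Among the strongest rises were 6 noncoding RNA genes, SNHG1 the most abundant. SNHG1, whose introns give rise to small nucleolar RNAs (snoRNAs) that guide rRNA modification, had 65.8 and 70.9 CPM in untreated cells and 149 and 153 CPM at the higher dose. It rose 2.21-fold (log2 fold change 1.14 ± 0.04 SE, edgeR adjusted p = 1.41e-32). The snoRNA hosts LOC388796 (SNHG17) and C7orf40 (SNHG15) rose too, the first from 11.2 and 13 to 27.3 and 27.6 CPM and the second from 13.2 and 12.1 to 25.9 and 24.8 CPM. LOC100128881 (VPS9D1-AS1) had the largest log2 fold change among genes at 5 CPM or more, 1.47 ± 0.13, from 2.82 and 2.80 to 7.70 and 7.86 CPM. It is antisense to VPS9D1, and because strand use in counting is not given, its reads cannot be told from those of its partner.

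TIMM9, a chaperone that ferries proteins across the space between the mitochondrial membranes, went from 33.5 and 39.0 to 70.1 and 69.6 CPM, a 1.92-fold rise. FAM36A (COX20), which helps to assemble cytochrome c oxidase, went from 11.5 and 12.1 to 22.4 and 22.7 CPM. FAM86A (EEF2KMT), the methyltransferase of elongation factor 2, went from 8.64 and 8.21 to 18.2 and 17.2 CPM and has close paralogs that can share its reads. The growth factor FGF1 had 5.48 and 5.01 CPM against 10.4 and 9.55 CPM. BATF3, an AP-1 family factor, had 6.43 and 6.50 CPM against 12.9 and 12 CPM. The others were LOC730755 (KRTAP2-3, 1.15), which belongs to a family of near-identical genes, DLEU1 (0.93) and the antisense gene LOC100506994 (PTPRG-AS1, 0.94). In all 24 of these genes the lower dose libraries lay between the groups compared. The same held for the 10 largest gains in CPM and for 8 of the 10 largest losses, described below. All were chosen as extremes of the higher dose against untreated, which favours this order, and its share over all tested genes was not counted.

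**Figure D2:**
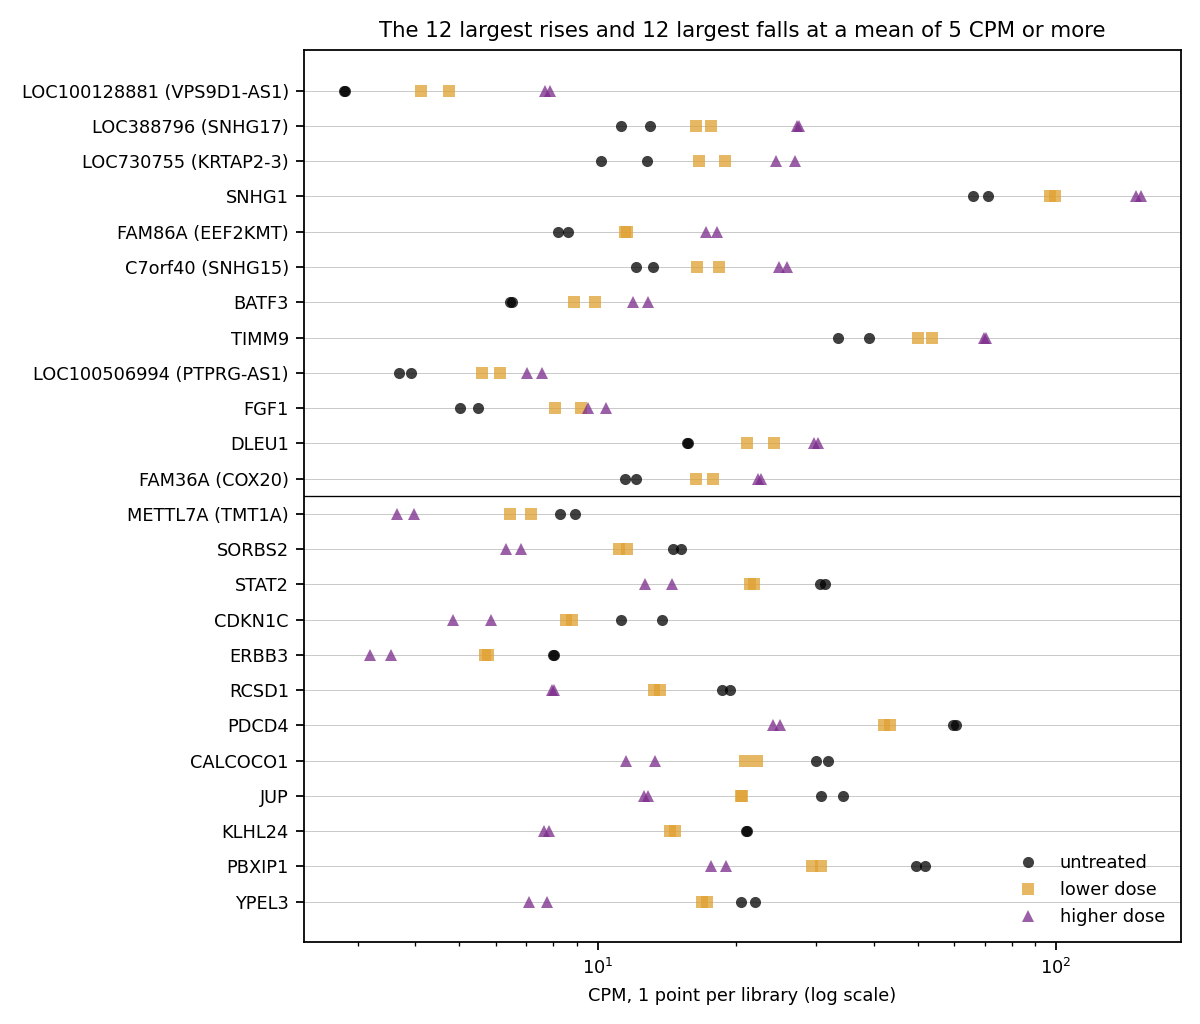
CPM in each library, on a log scale, of the 12 largest rises (upper rows) and 12 largest falls (lower rows) among genes at a mean of 5 CPM or more, with circles for untreated, squares for lower dose and triangles for higher dose. The untreated and higher dose points are separate in every gene because genes whose groups overlapped were not eligible. Of all tested genes, 76.3% did not overlap. SNHG1, for example, had 65.8 and 70.9 against 149 and 153 CPM.

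Changes in the most abundant mRNAs were smaller in fold but carried many more reads. The largest loss was that of EEF1A1, the elongation factor that brings aminoacyl-tRNA to the ribosome, with 12524 and 12317 CPM in untreated cells and 9713 and 9509 CPM at the higher dose (log2 fold change −0.37 ± 0.03 SE, edgeR adjusted p = 2.34e-18). VIM (vimentin), the intermediate filament protein of mesenchymal cells, went from 3749 and 3589 to 2691 and 2681 CPM. The glycolytic enzymes ENO1, PKM2 (PKM) and GAPDH also lost reads. ENO1 had 3079 and 2930.1 against 2389 and 2341 CPM, PKM2 had 2866 and 2731 against 2142 and 2129.5 CPM, and GAPDH had 5354 and 5196 against 4766 and 4641 CPM. GAPDH, often used as a constant reference, was thus 1.12-fold lower (−0.17 ± 0.03 SE). S100A6, a calcium-binding protein, had 7306 and 7172 against 6587 and 6478 CPM, at −0.15 the smallest fold among the 10 largest losses.

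The secreted IGF-binding protein IGFBP4, which holds IGF1 away from its receptor, had 3512 and 3428 CPM against 2806 and 2790.0 CPM. APP, the amyloid precursor protein, had the largest fold of these losses, from 1212 and 1196 to 752 and 722 CPM (−0.71 ± 0.03 SE, edgeR adjusted p = 1.65e-29). Its paralog APLP2 went from 1449 and 1419 to 1008 and 969.5 CPM (−0.54), and the lysosomal protease CTSD (cathepsin D) from 1462 and 1375 to 1022 and 1003 CPM (−0.49).

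Of the 10 largest gains, 7 were ribosomal protein mRNAs. The largest gain of all was ACTG1, cytoplasmic gamma-actin, with 1894 and 1880.4 CPM against 2623 and 2579 CPM (0.46 ± 0.03 SE). EIF4G2, an initiation factor related to eIF4G that supports cap-independent translation, had 939.7 and 946 CPM against 1454 and 1448 CPM (0.62 ± 0.03 SE, edgeR adjusted p = 8.43e-28). TMSB10, an actin-sequestering thymosin, had 2044 and 2159 CPM against 2624 and 2706 CPM. The ribosomal protein gains included RPL41 (0.57), RPS18 (0.36), RPS3A (0.43), RPL8 (0.28), RPS21 (0.67) and RPL27A (0.46).

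The 43 strongly changed genes in the top 10% by abundance were examined after their values were seen. Of these, 26 fell. ANKRD1, a target of YAP, went from 370.4 and 357 to 187 and 189 CPM (−0.95), PTGES, the prostaglandin E synthase, from 430.1 and 417 to 219 and 223 CPM (−0.94), and CD55, which shields cells from complement, from 405 and 388 to 204 and 209.8 CPM (−0.94). CTGF (CCN2), CYR61 (CCN1), THBS1 and FN1, all matrix-associated proteins, were in this set, as were the lysosomal proteins GRN and PSAP and the cytokine IL11. IL11, which promotes bone resorption, had 239.9 and 240.2 CPM against 149 and 147 CPM (−0.70). Among the 17 that rose were 4 ribosomal proteins of the small subunit (RPS21, RPS27, RPS28 and RPS29), the snoRNA hosts SNHG5 and C17orf76-AS1 (SNHG29), CYCS (cytochrome c), SRM (spermidine synthase) and AZIN1, which raises polyamine synthesis. SRM went from 144 and 147 to 217 and 227 CPM (0.61), and AZIN1 from 192 and 202 to 293 and 304 CPM.

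Gene families were described by how many of their tested members rose or fell, to be read against 28.1% and 28.2% over all tested genes, and by their median log2 fold change, to be read against −0.0008 over all tested genes. A family is called family-wide below where at least 75% of its tested members passed in 1 direction. Of the 67 families apart from the cell line checks, 9 rose family-wide and 1 fell. Only snoRNA hosts and small subunit ribosomal proteins met the 75% rule under all 12 alternatives run. Large subunit ribosomal proteins, subunits of RNA polymerases I and III and mitochondrial import lost it only in a test against 1.2-fold, and the other 5 lists also lost it in other settings given beside them.

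**Figure D3:**
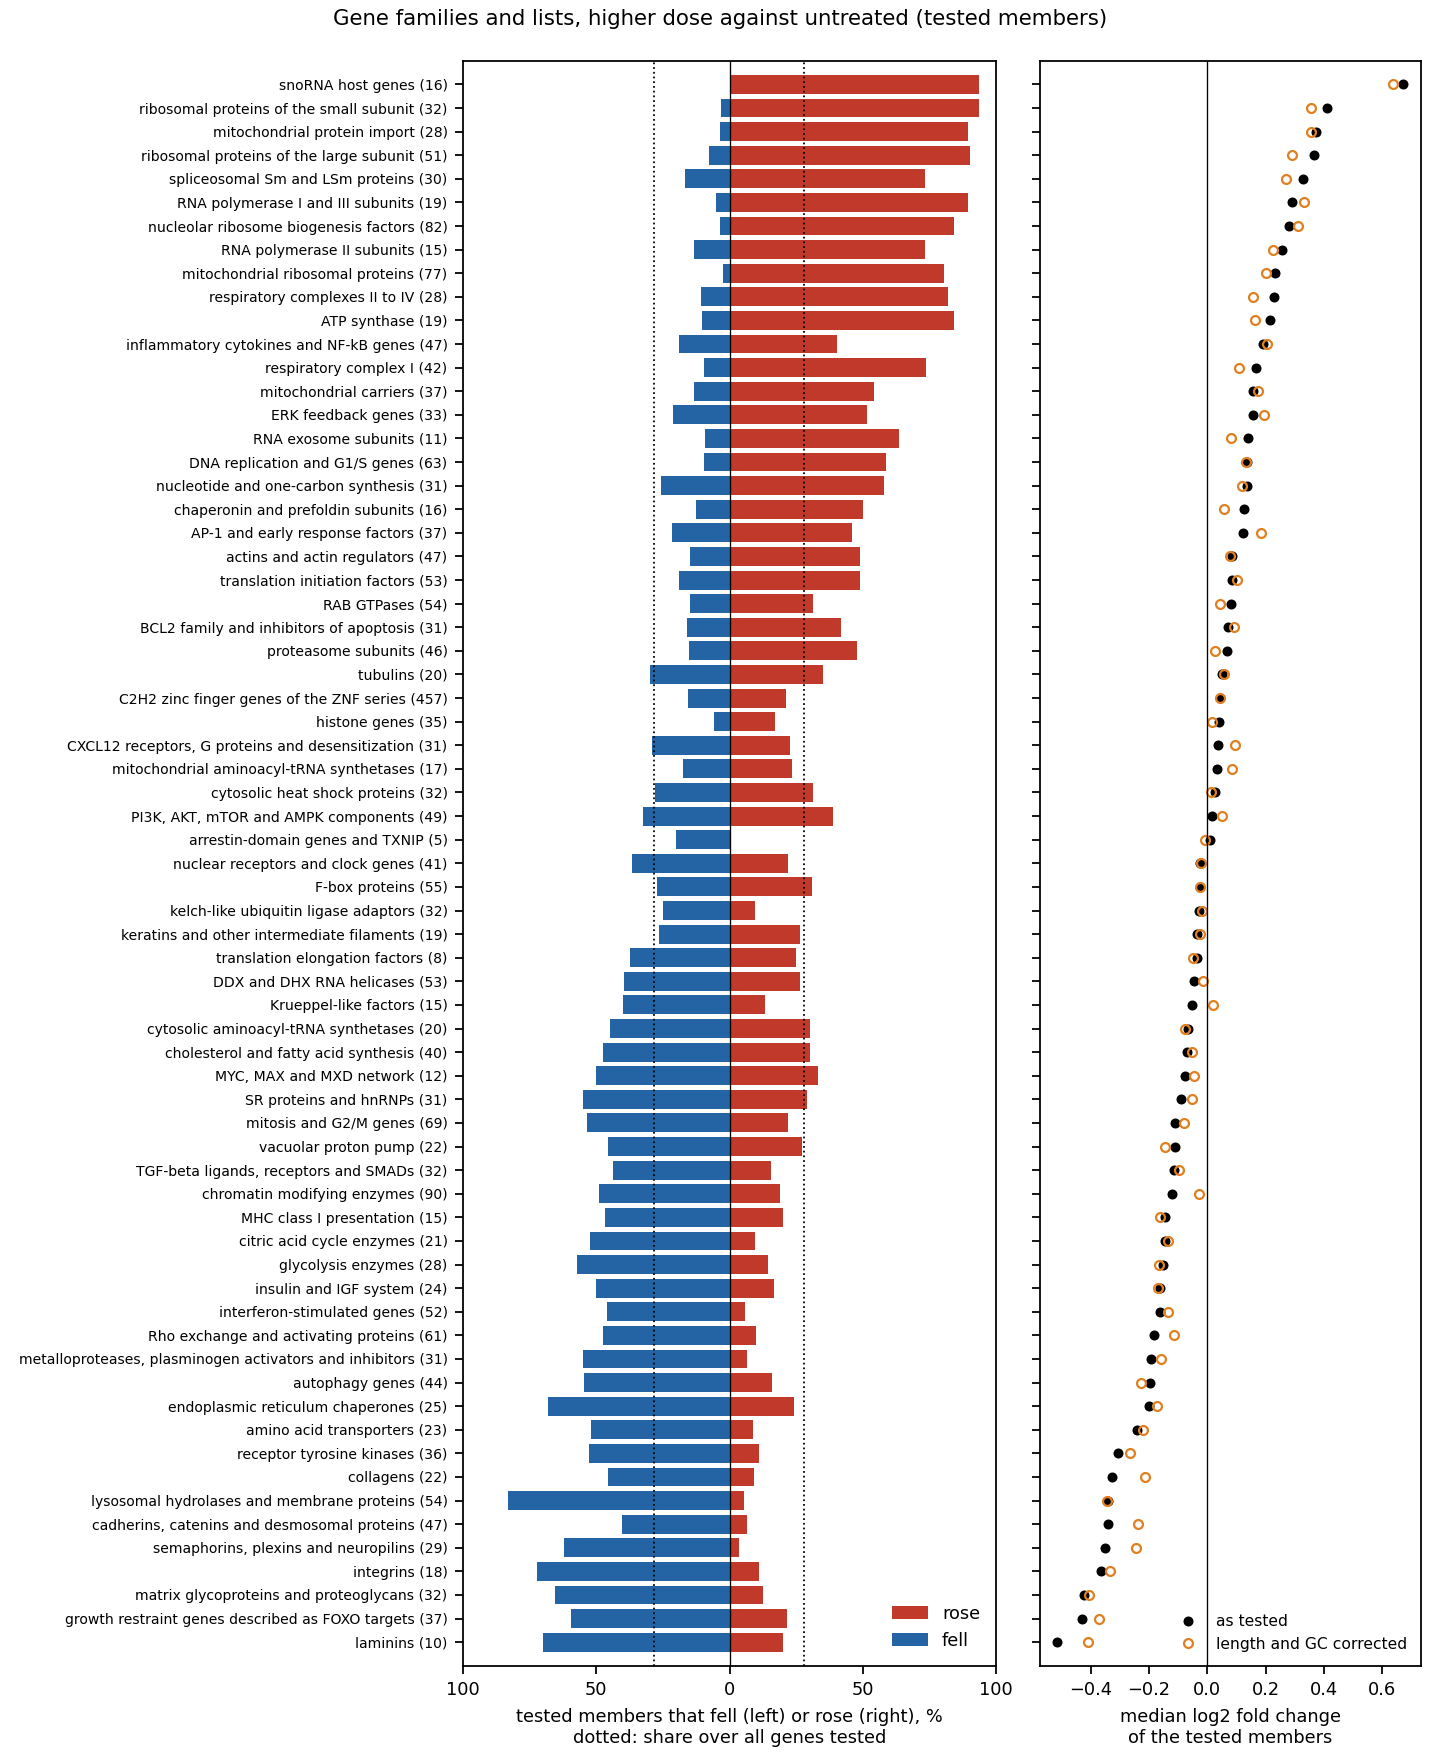
For each of 67 gene lists (tested members in brackets), the left panel shows the percentage of tested members that rose (red, to the right) and fell (blue, to the left), with dotted lines at the shares over all tested genes, and the right panel the median log2 fold change as tested (black) and after a correction for transcript length and GC content (open). The lists run from laminins at −0.51 to snoRNA hosts at 0.67, and no list with a median beyond 0.1 in size changed sign with the correction.

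Cytosolic ribosomal proteins rose almost as a whole. In the large subunit 46 of 51 tested members rose, 4 fell and RPL7L1 did not pass, with a median of 0.37. In the small subunit 30 of 32 rose, 1 fell and RPS4X did not pass, with a median of 0.41. The steepest rises were RPS29 (458 and 500.4 CPM to 769 and 801 CPM, 0.71), RPS21 (662 and 714 to 1089 and 1107 CPM), RPS28 (489.7 and 527 to 775 and 815 CPM, 0.64) and RPL22L1, a paralog of RPL22 (70.3 and 74.4 to 114 and 112 CPM, 0.64). Against this, RPL13A went from 320.1 and 325 to 276 and 275 CPM (−0.23), and RPLP0, of the ribosomal stalk, from 2385 and 2336 to 2067 and 2064 CPM (−0.19). The stalk protein RPLP1 (−0.10), RPL3 (−0.08) and RPSA (−0.09) fell slightly. RPL10A, whose tagged copy was the bait, had 1531 and 1557 CPM against 1620.5 and 1612 CPM (0.07 ± 0.03 SE, edgeR adjusted p = 0.0238; 0.01 and no longer past the threshold after the correction for length and GC content), a gene count that adds the tagged copy to the native one. Pseudogenes of ribosomal proteins are many, and reads that fit both copies are uncertain.

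Most mRNAs of ribosomal proteins begin with a run of pyrimidines at the cap, the terminal oligopyrimidine (TOP) motif, through which mTORC1 and LARP1 control their translation. RefSeq promoter sequences (GRCh38.p14) were found for 41 of 51 large subunit and 26 of 32 small subunit members, using the first start listed. A run of 8 or more C or T touching the 10 bases on either side of the start was present in 75.6% of the former and 84.6% of the latter, against 15.4% of all 27305 promoters of the table. The stretches below show 15 bases before and 15 after the annotated start, with the longest run near the start in capitals, for members that rose most, for 3 that fell and for the bait and 3 abundant translation factors.
RPS29 (rose 0.71, chr14:49598696-49598725, minus strand): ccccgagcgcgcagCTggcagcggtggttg
RPS21 (rose 0.67, chr20:62387088-62387117, plus strand): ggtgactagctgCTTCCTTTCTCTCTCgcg
RPS28 (rose 0.64, chr19:8321481-8321510, plus strand): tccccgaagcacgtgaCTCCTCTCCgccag
RPL22L1 (rose 0.64, chr3:170870181-170870210, minus strand): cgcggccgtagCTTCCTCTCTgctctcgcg
RPL13A (fell, −0.23, chr19:49487593-49487622, plus strand): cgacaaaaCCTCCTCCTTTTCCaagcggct
RPLP0 (fell, −0.19, chr12:120201097-120201126, minus strand): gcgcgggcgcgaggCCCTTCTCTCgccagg
RPLP1 (fell, −0.10, chr15:69452803-69452832, plus strand): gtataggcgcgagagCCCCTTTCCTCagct
RPL10A (rose 0.07, chr6:35468386-35468415, plus strand): tgcgcaagacatgctagTCTCTTTTCCggt
EEF1A1 (fell, −0.37, chr6:73521018-73521047, minus strand): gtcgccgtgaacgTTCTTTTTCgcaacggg
EEF2 (fell, −0.18, chr19:3985449-3985478, minus strand): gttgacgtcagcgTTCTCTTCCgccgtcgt
EIF4G2 (rose 0.62, chr11:10807982-10808011, minus strand): gaggttgtcggaagcaCTTCCCTaacttgc

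The run by itself did not separate the members that rose from those that fell. Of the 53 ribosomal protein genes with a run, 49 rose and 4 fell, with a median of 0.40, and of the 14 without one, 11 rose and 1 fell, with a median of 0.28. RPL13A, with a run of 14 letters, fell, while RPS29, with none of 8 letters at this start, rose most. EEF1A1 and EEF2, the translocase, have runs of 9 letters and fell, whereas EIF4G2, with a run of 7, rose. The annotated start may differ from the one used in these cells, and no match says only that the letters are not in this window.

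Elongation and initiation factors did not follow the ribosomal proteins as groups. Of 8 elongation factor genes, 3 fell and 2 rose. EEF2 had 686 and 694 CPM against 619.7 and 601 CPM, while EEF1E1, a scaffold protein of the multi-synthetase complex listed here for its symbol, went from 27.5 and 31.1 to 42.3 and 48.7 CPM (0.63). Of 53 initiation factor genes, 26 rose and 10 fell. EIF4E, the cap-binding protein, went from 94.0 and 97.3 to 137 and 139 CPM (0.53), and EIF1AX, which scans for the start codon, from 84.0 and 90.6 to 126 and 124 CPM (0.52). EIF4B, the cofactor of eIF4A, fell from 257 and 248 to 207 and 198 CPM (−0.32), and EIF2C4 (AGO4), an Argonaute protein listed for its old symbol, fell by 0.74 on the log2 scale. Cytosolic aminoacyl-tRNA synthetases were split, with 6 up and 9 down of 20. QARS fell from 155 and 149 to 106 and 102 CPM, and FARSB rose from 51.2 and 51.1 to 75.5 and 72.9 CPM.

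Genes that build ribosomes rose in most members. Of 82 nucleolar ribosome biogenesis factors, 69 rose, 3 fell and 10 did not pass, with a median of 0.28 and 6 strong rises. The list fell below 75% with DESeq2 (60 of 82 rose), without untreated replicate a (61) and without higher dose replicate a (59). NOP16 led with 34.1 and 33.7 CPM in untreated cells and 62.3 and 63.3 CPM at the higher dose (0.89). PNO1, needed to mature the small subunit, went from 57.6 and 57.5 to 90.6 and 91.1 CPM (0.66), and MRTO4, which precedes the stalk on the large subunit, from 80.6 and 82.7 to 128 and 125 CPM (0.63). UTP3 (−0.31), MPHOSPH10 (−0.14) and FTSJ3 (−0.09) were the members that fell. Of 19 subunits of RNA polymerases I and III, which make rRNA, 5S rRNA and tRNA, 17 rose and 1 fell. POLR3G, the form of a polymerase III subunit found in stem and cancer cells, had 10.5 and 10.8 CPM against 19.2 and 18.9 CPM (0.84), and POLR3A, the largest catalytic subunit, had 29.8 and 31 against 25.8 and 25.6 CPM (−0.24). Among 16 listed snoRNA host genes 15 rose, 11 of them strongly, and none fell, with a median of 0.67. SNHG8 went from 67.5 and 72.0 to 120.1 and 123 CPM (0.80), and GAS5 from 81.3 and 86.4 to 114 and 116 CPM (0.46). SNHG4, at a mean of about 1 CPM, did not pass.

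MYC, the factor that drives many ribosome assembly genes, itself had 122 and 129 CPM in untreated cells and 125 and 123 CPM at the higher dose and did not pass (log2 fold change −0.02 ± 0.03 SE, edgeR adjusted p = 0.648). It binds the E-box CACGTG, which reads the same on both strands. Of 69 nucleolar factors with a RefSeq promoter (250 bases before to 50 after the start), 27 (39.1%) held that E-box, against 7.43% of all 27305 promoters of the table. Windows of 30 bases around the first E-box, in capitals, are shown for the 4 members with the largest rises among them.
PNO1 (rose 0.66, chr2:68157885-68157914, plus strand): ggtgcagctgcgCACGTGtttcagccggca
MRTO4 (rose 0.63, chr1:19251807-19251836, plus strand): cgtcttccgccgCACGTGgattcagcgcga
RRP9 (rose 0.60, chr3:51941892-51941921, minus strand): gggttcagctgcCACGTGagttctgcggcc
IMP4 (rose 0.51, chr2:130342682-130342711, plus strand): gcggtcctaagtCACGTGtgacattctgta

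Members with and without the E-box moved alike in these data. Of the 27 with it, 24 rose and 0 fell, with a median of 0.29, and of the 42 without it, 33 rose and 2 fell, with a median of 0.28. The motif was thus more frequent in this list than among all promoters, but it did not go with the size of the change within the list. Of the 10787 tested genes with a promoter, 10.05% held it. Among these genes, it was in 11.4% of those that rose and 9.76% of those that fell. At 1.5-fold or more the shares were 13.4% and 7.09%. It was also in 4 of 13 promoters of Krueppel-like factors, a list of which 2 members rose and 6 fell. Of 44 promoters of initiation factors, a list of which 26 members rose and 10 fell, 11 held it. A part of MYC in these changes was not tested.

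Members of the MYC network were split. Of 12 tested network genes, 4 rose and 6 fell. MXI1, a repressor that competes with MYC for its partner MAX, went from 25.2 and 26 to 13.7 and 15.4 CPM (−0.81), and MXD4 from 100.2 and 95.8 to 57.6 and 56.0 CPM (−0.78). The repressor MNT fell as well (−0.36), while MXD1, of the same repressor family, rose (0.33).

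Mitochondrial genes rose in most members of 4 lists, of which import alone kept the family-wide share after the correction for length and GC content. Of 77 mitochondrial ribosomal proteins, 62 rose and 2 fell, with a median of 0.23. MRPS12 had 78.8 and 78.1 CPM in untreated cells and 117 and 116 CPM at the higher dose (0.57), and MRPL12 had 192 and 196 against 274 and 286 CPM (0.53). Of 28 protein import genes 25 rose, 4 of them strongly, and 1, SAMM50 of the outer membrane (−0.10), fell. TIMM8A went from 32.0 and 34.4 to 59.8 and 57.9 CPM (0.82), and TOMM5, a small subunit of the outer membrane pore, from 143 and 152 to 226 and 239.7 CPM (0.66). Of 28 genes of respiratory complexes II to IV, 23 rose and 3 fell, and of 19 ATP synthase genes, 16 rose and 2 fell. CYCS, the electron carrier that also triggers apoptosis, went from 274 and 289 to 441 and 453 CPM (0.67). After the correction 57 of 77 mitochondrial ribosomal proteins, 19 of 28 genes of complexes II to IV and 13 of 19 ATP synthase genes rose, all below 75%. ATP synthase was also below it with DESeq2 (13), upper quartile factors (14) and in 3 of the 4 fits without 1 replicate (13 or 14 without untreated replicate a, higher dose replicate a or higher dose replicate b), and complexes II to IV without higher dose replicate b (20). Complex I had 31 of 42 up and 4 down.

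The members that fell in these complexes included core and catalytic subunits. SDHA, the flavoprotein of complex II, had 167 and 170.2 CPM against 140.2 and 137 CPM (−0.28). ATP5A1 (ATP5F1A) and ATP5B (ATP5F1B), which form the catalytic head of ATP synthase, had −0.22 and −0.11, with 879 and 853 against 809 and 792 CPM for ATP5B. UQCRC2 (−0.27) is a core protein of complex III. The same was seen in RNA polymerase II, of which 11 of 15 subunits rose. POLR2F rose from 63.8 and 69.3 to 94.1 and 99.4 CPM (0.54), while the 2 largest subunits, POLR2A (209 and 227 to 179.8 and 181 CPM, −0.28) and POLR2B (−0.12), fell. Of 30 spliceosomal Sm and LSm genes, 22 rose and 5 fell. LSM10 (45.1 and 44.8 to 70.8 and 72.4 CPM, 0.67) was at the top. The large helicase SNRNP200 (319.9 and 329 to 295 and 275 CPM, −0.19), listed here though neither an Sm nor an LSm protein, was at the bottom. By transcript length, all falls in ATP synthase (2) and RNA polymerase II (2) lay above the median of their list. In complexes II to IV 2 of 3 falls did, and among Sm and LSm genes 3 of 5. After the correction for length and GC content, 1 RNA polymerase II subunit and 3 Sm and LSm genes fell. ATP synthase then had 2 falls and complexes II to IV had 4.

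Transcript length moved with the change, and its part in these contrasts was not tested beyond the correction given here. Over the 13292 tested genes with a length, Spearman's rho of log2 fold change with length was −0.19 across genes of these 4 libraries, which are not independent replicates. The shortest 10% of transcripts had a median of 0.06 and the longest 10% −0.11. After length and GC content were corrected for, the large subunit ribosomal proteins had a median of 0.29, the small subunit 0.36, the nucleolar factors 0.31, mitochondrial import 0.36 and snoRNA hosts 0.64. ATP synthase and complexes II to IV had 0.16 each and complex I had 0.11. Lysosomal genes were at −0.34 before and after. Semaphorins, plexins and neuropilins moved from −0.35 to −0.25, and chromatin modifying enzymes from −0.12 to −0.03.

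Lysosomal genes fell in most members. Of 54 tested hydrolases and membrane proteins 45 fell, 3 rose and 6 did not pass, with a median of −0.34. The share was below 75% with DESeq2 (39 of 54 fell) and without higher dose replicate b (40 of 54). FUCA1, a fucosidase, had 106 and 104 CPM in untreated cells and 62.4 and 57.4 CPM at the higher dose (−0.81). GRN (progranulin) had 646 and 629.8 CPM against 379 and 360.1 CPM (−0.79). The protease TPP1 had 122 and 120.1 against 74.6 and 74.2 CPM (−0.70), and NPC1, which exports cholesterol from the lysosome, had 122 and 113 against 72.8 and 73.3 CPM (−0.68). Among the members that rose, CTSC and FUCA2 did so by little, at 0.08 each. The vacuolar proton pump, which acidifies the lysosome, was split, with 10 down and 6 up of 22. Its membrane subunit ATP6V0A1 fell from 56.3 and 56.3 to 40.6 and 36.9 CPM (−0.54). Of 44 autophagy genes 24 fell and 7 rose. NBR1, a cargo receptor, went from 165 and 160.3 to 92.3 and 89.6 CPM (−0.84), and ULK1, the kinase that starts autophagy and is restrained by mTORC1, from 20.1 and 21.4 to 13.3 and 12.4 CPM (−0.69). ATG4C (0.46) and ATG3 (0.36), of the conjugation machinery, rose.

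Growth restraint genes that are described as FOXO targets held the most strong falls of any list. Its members were chosen with earlier results of these data known, which can favour this rank. Of 37 tested, 22 fell, 17 of them strongly, 8 rose and 7 did not pass, with a median of −0.43. YPEL3, KLHL24, PDCD4, ERBB3 and CDKN1C are members whose values are given above. IGFBP1, a binding protein repressed by insulin, went from 169.8 and 169.9 to 85.1 and 82.2 CPM (−1.02). CDKN1A (p21, 110.4 and 109 to 148 and 145 CPM, 0.41) and SESN1 (0.31), both also p53 targets, rose. TXNIP (−0.02) and TRIB2 (0.01) did not pass.

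Of the 31 members with a RefSeq promoter, 7 (22.6%) held the FOXO site GTAAACA on either strand, against 3.41% of all promoters of the table. All 7 but 1 are shown, with the site in capitals, since they include falls, rises and genes that did not pass.
YPEL3 (fell, −1.51, chr16:30096196-30096225, minus strand): gctgggctcggtGTAAACAagtccaggcgc
HBP1 (fell, −1.03, chr7:107168818-107168847, plus strand): ccatcttctccaGTAAACAcaacacaaaag
FOXO4 (fell, −0.70, chrX:71095862-71095891, plus strand): ccccggcgagtgGTAAACAgagacgtcagg
TXNIP (did not pass, −0.02, chr1:145996686-145996715, minus strand): gtcgggctcctgGTAAACAaggaccgggca
BTG1 (rose 0.22, chr12:92146038-92146067, minus strand): tccgggtttattTGTTTACaagcggattac
BCL2L11 (rose 0.22, chr2:111120679-111120708, plus strand): agagttactccgGTAAACAcgccagggacg

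Of the 7 genes with the site, 3 fell, 2 rose and 2 did not pass, with a median of −0.02. Of the 24 without it in this window, 15 fell and 4 rose, with a median of −0.40. Sites outside the window were not searched.

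The receptors for both ligands were lower in treated cells. CXCR4 had 45.3 and 49.3 CPM in untreated cells and 34 and 34.3 CPM at the higher dose (log2 fold change −0.47 ± 0.05 SE, edgeR adjusted p = 6.65e-12). IGF1R had 33.2 and 35.6 against 22.6 and 20.7 CPM (−0.67 ± 0.06 SE, edgeR adjusted p = 1.71e-14), and the insulin receptor INSR had 15.4 and 17.8 against 9.44 and 9.73 CPM (−0.80 ± 0.08 SE, edgeR adjusted p = 7.25e-12). Neither group overlapped the other in any of these, which was also so in 76.3% of all tested genes. IGF2R, which carries IGF2 and lysosomal enzymes to the lysosome, had 144 and 142 CPM against 87.0 and 82.5 CPM (−0.75). The adaptor IRS1 was at the edge of the test, with 112 and 121 against 110.0 and 111 CPM (−0.08, edgeR adjusted p = 0.0387; 0.08 after the correction for length and GC content), and IRS2, with 41.6 and 42.8 against 40.9 and 40.1 CPM, did not pass (edgeR adjusted p = 0.288). The ligands CXCL12 and IGF1 and the second CXCL12 receptor, CXCR7, had too few reads to test.

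Downstream signalling genes moved in both directions. Of 24 tested genes of the insulin and IGF system 12 fell and 4 rose, and GRB10, an adaptor that dampens insulin signalling, was among those that rose (63.9 and 61.3 to 84.3 and 78.0 CPM, 0.38). Of 31 genes of CXCL12 receptors, G proteins and desensitization, 9 fell and 7 rose, near the shares over all genes. ARRB1 (beta-arrestin 1), which uncouples receptors from G proteins, went from 75.7 and 74.6 to 49.5 and 45.8 CPM (−0.66). Of 49 PI3K, AKT, mTOR and AMPK components 19 rose and 16 fell, with AKT1 (161 and 167 to 209 and 212 CPM, 0.36) up and PIK3C3, the autophagy lipid kinase (43.9 and 45.9 to 31.1 and 30.2 CPM, −0.55), down. Other receptor tyrosine kinases were mostly lower, with 19 down and 4 up of 36 (median −0.31). PTK7 fell from 197 and 190.2 to 126 and 125 CPM (−0.63), and MERTK from 18.1 and 15 to 10.9 and 10.3 CPM (−0.64). Among semaphorins and their plexin and neuropilin receptors 18 of 29 fell and 1, SEMA7A, rose. PLXND1 fell from 55.5 and 53.5 to 30.1 and 30.3 CPM (−0.85), and PLXNA1 from 315 and 305 to 227 and 217 CPM (−0.48).

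Genes for adhesion and extracellular matrix fell more often than they rose in each list, and none of these lists reached 75%. Among cadherins, catenins and desmosomal proteins 19 of 47 fell, 3 rose and 25 did not pass. Of 18 genes with an integrin symbol 13 fell and 2 rose. ITGB4, the beta chain of hemidesmosomes, went from 207 and 194 to 104 and 100.3 CPM (−0.97). ITGA6, its partner, went from 803 and 788 to 590.2 and 577 CPM (−0.45), and the collagen receptor chain ITGA2 from 181 and 170.4 to 108 and 107 CPM (−0.70). One of the 2 that rose, ITGB1BP1, is an integrin-binding protein and not an integrin. The other was ITGAE, with 18 and 23.1 CPM against 29.8 and 32.7 CPM. Of 10 laminin genes 7 fell and 2 rose. LAMB2 had 349 and 332 CPM against 199.6 and 199.2 CPM (−0.77), and LAMA5 had 149.7 and 148 against 90.1 and 83.4 CPM (−0.78). LAMA1 and LAMA2, the laminins that rose, had means under 2 CPM.

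Of 32 matrix glycoproteins and proteoglycans 21 fell, 11 of them strongly, and 4 rose. HSPG2 (perlecan), of basement membranes, had 98.0 and 97.3 CPM against 51.1 and 47.4 CPM (−0.99), and FBN1 (fibrillin-1) had 34.5 and 33.2 against 17.8 and 17.2 CPM (−0.95). The membrane proteoglycan SDC4 rose from 169.8 and 179 to 216 and 216 CPM (0.31). Collagens were lower in 10 of 22 and higher in 2, with COL4A1 at 29 and 29.7 against 17.1 and 15.3 CPM (−0.86). Among metalloproteases, plasminogen activators and inhibitors 17 of 31 fell and 2 rose. The plasminogen activators PLAU (270.1 and 263 to 149 and 150.3 CPM, −0.83) and PLAT (818 and 765 to 545 and 544 CPM, −0.54) fell, as did the inhibitor TIMP3 (1169 and 1115 to 787 and 771 CPM, −0.55).

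Within the cytoskeleton, actin genes and intermediate filaments differed. Of 47 actins and actin regulators 23 rose and 7 fell. ARPC5L, a subunit of the Arp2/3 complex, had 117 and 122 CPM against 171 and 170.5 CPM (0.52), and MYL9, a myosin light chain, had 104 and 99.1 against 137 and 140.2 CPM (0.45). VCL (vinculin, −0.40) and TLN1 (talin, −0.32), which tie actin to integrins, fell. Among 19 keratins and other intermediate filaments 5 rose and 5 fell. KRT18 fell from 581 and 541 to 449 and 439 CPM (−0.34), while KRT10 rose from 55.8 and 60.1 to 105 and 110.0 CPM (0.89).

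Metabolic lists were lower for glycolysis and the citric acid cycle and mixed for synthesis. Of 28 glycolysis genes 16 fell and 4 rose. The glucose transporter SLC2A1 (GLUT1) went from 824 and 789.9 to 529.6 and 521 CPM (−0.62), while HK2, hexokinase, rose from 96.3 and 97.6 to 118 and 117 CPM (0.28). Of 21 citric acid cycle enzymes 11 fell and 2 rose, the latter IDH3A (0.13) and CS, citrate synthase (0.08). Nucleotide and one-carbon synthesis genes rose in 18 of 31 and fell in 8. MTHFD2 of the mitochondrial folate pathway rose from 61.1 and 60.5 to 80.5 and 79.5 CPM (0.40), and PHGDH, which starts serine synthesis, fell from 64.8 and 60.4 to 46 and 45.9 CPM (−0.44). Cholesterol and fatty acid synthesis genes fell in 19 of 40 and rose in 12, with MVD, of the mevalonate pathway, higher (128 and 120.1 to 156 and 156 CPM, 0.33). Of 23 amino acid transporters 12 fell and 2 rose.

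The cell cycle lists pointed in different directions. Of 63 genes of DNA replication and G1/S 37 rose and 6 fell (median 0.14). CDC25A, the phosphatase that opens S phase, went from 30.3 and 33.2 to 46.8 and 45.2 CPM (0.53), and GINS2 of the replicative helicase from 51.2 and 51.7 to 72.6 and 77.9 CPM (0.55). Of 69 mitosis and G2/M genes 37 fell and 15 rose (median −0.11). CDC25C had 25.1 and 24.0 CPM against 16.3 and 15.5 CPM (−0.63), and BUB1, of the spindle checkpoint, had 118 and 117 against 84.2 and 78.2 CPM (−0.53). Cell cycle phase was not measured.

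Endoplasmic reticulum chaperones fell in 17 of 25 cases and rose in 6. HSP90B1 (GRP94) went from 1153 and 1110.2 to 752 and 714 CPM (−0.63) and CANX (calnexin) from 1065 and 1047 to 829 and 809 CPM (−0.37), while SDF2L1 rose from 29.3 and 29.9 to 48.4 and 47.8 CPM (0.70). Of 52 interferon-stimulated genes 24 fell and 3 rose. IRF9, which acts with STAT2, went from 29 and 26.4 to 17.9 and 16.8 CPM (−0.67), and DDX58 (RIG-I), a sensor of viral RNA, from 56.1 and 56.2 to 40.02 and 36.3 CPM (−0.56). ISG15 rose slightly, from 128 and 126 to 146 and 143 CPM (0.19). Inflammatory cytokines and NF-kB genes rose in 19 of 47 cases and fell in 9. IL8 (CXCL8), a neutrophil attractant, had 33.4 and 32.2 CPM against 61.7 and 60.7 CPM (0.90), and the apoptosis inhibitor BIRC3 had 14.5 and 16.4 against 29.1 and 29.2 CPM (0.91). The macrophage growth factor CSF1 was lower, with 159 and 145 against 87.8 and 86.6 CPM (−0.80). Zinc finger genes of the ZNF series, the largest list, stayed near or below the shares over all genes, with 97 up and 71 down of 457.

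The share of all gene reads taken by each family put these counts on a common scale. Large subunit ribosomal proteins took 4.47% and 4.54% of the reads in untreated cells and 5.47% and 5.53% at the higher dose, and small subunit proteins 2.54% and 2.62% against 3.32% and 3.37%. Nucleolar factors went from 0.800% and 0.817% to 0.956% and 0.939%. Elongation factors, dominated by EEF1A1, went from 1.61% and 1.58% to 1.31% and 1.29%. Glycolysis enzymes took 2.20% and 2.12% and then 1.90% and 1.87%, and lysosomal proteins 0.996% and 0.976% and then 0.784% and 0.769%. In each of these the groups did not overlap. The same held in lists with mixed changes, such as proteasome subunits (0.932% and 0.920% against 0.966% and 0.963%). How many of all lists did not overlap was not counted. With 2 libraries a group an exact permutation test cannot go below p = 0.33, so the shares carry no test. Fewer cells of a kind and less RNA per cell cannot be told apart in bulk samples, and a share can fall because others rise.

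**Figure D4:**
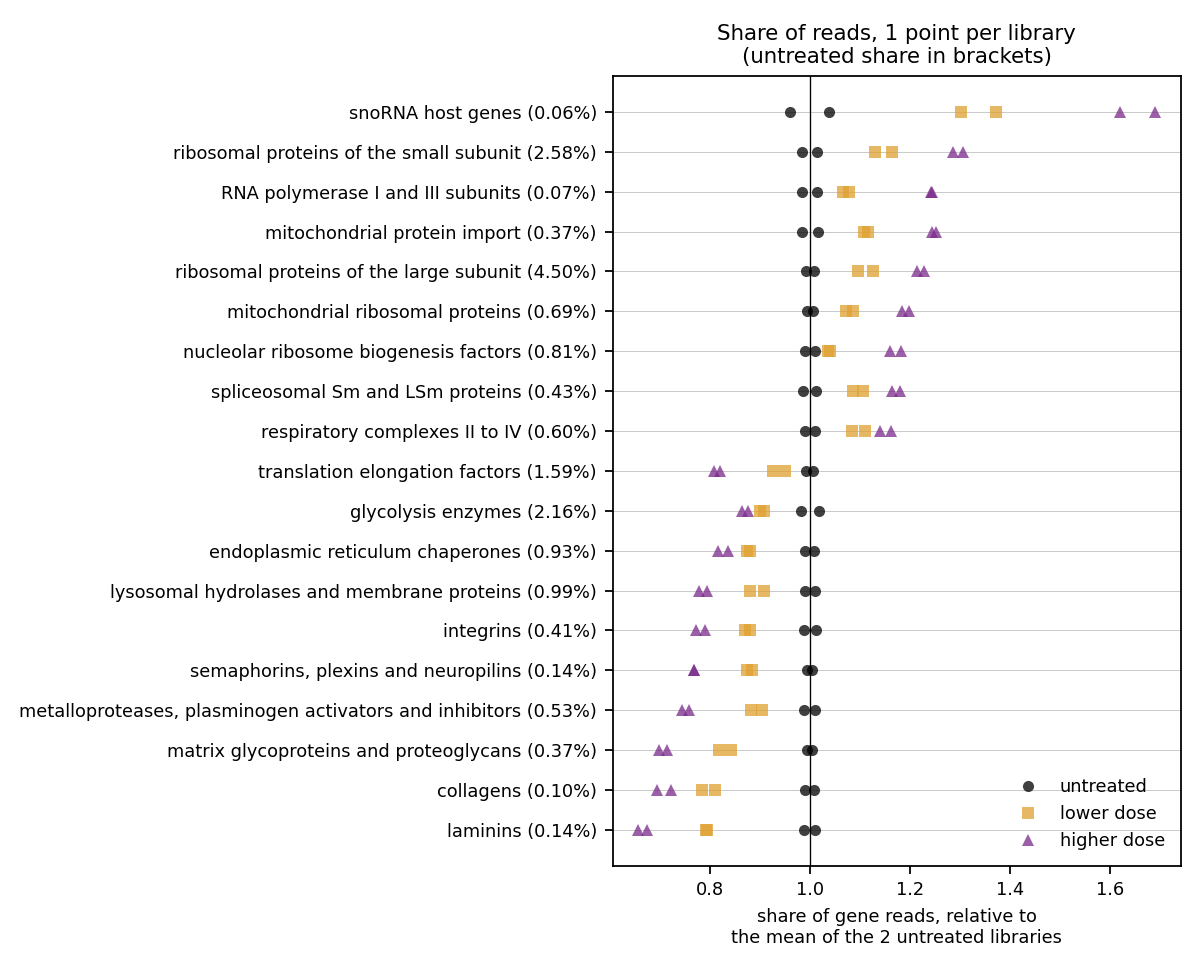
Share of gene reads taken by each of 19 families in each library, relative to the mean of the 2 untreated libraries (whose share is in brackets), with circles for untreated, squares for lower dose and triangles for higher dose. Large subunit ribosomal proteins rise from 4.47% and 4.54% to 5.47% and 5.53%, and the lysosomal list falls from 0.996% and 0.976% to 0.784% and 0.769%.

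Long noncoding RNA genes, taken by RefSeq gene type, rose far more often than they fell. Of 487 tested, 153 rose (31.4%) and 18 fell (3.70%), with a median of 0.24, and 73 rose strongly against 8 that fell strongly. Of 12600 protein-coding genes 3549 rose and 3751 fell, 275 and 527 of them strongly. Noncoding genes had fewer reads, which lowers the number that can pass, and at 5 CPM or more 94 of 141 rose and 10 fell. The snoRNA hosts accounted for 21 of the rises, and without any of the 24 hosts 132 of 463 rose and 18 fell, with a median of 0.21. After correction for length and GC content 143 of the 487 rose and 20 fell.

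Rises outnumbered falls in each class of name, although the share that rose was near the 28.1% over all tested genes. Genes named as antisense rose in 58 of 191 cases and fell in 4, genes named as divergent rose in 16 of 50 and fell in 1, intergenic genes rose in 25 of 97 and fell in 7, and those with other names rose in 33 of 125 and fell in 6. LINC00152 (CYTOR) had 164 and 171 CPM in untreated cells and 232 and 240.4 CPM at the higher dose (0.50). AFAP1-AS1, antisense to an actin filament protein gene, went from 30.6 and 32.7 to 53.9 and 54.9 CPM (0.78), and MIR100HG, a microRNA host, from 15.9 and 16.2 to 27.2 and 27.1 CPM (0.76). Among those that fell, LOC647979 (NORAD), which binds Pumilio proteins, went from 217 and 233 to 173 and 164 CPM (−0.42), and NEAT1, the scaffold of nuclear paraspeckles, from 11.4 and 10.3 to 8.37 and 6.78 CPM (−0.52). These 5 were chosen after their values were seen. Antisense genes cannot be told from their partners if strand was not used in counting.

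**Figure D5:**
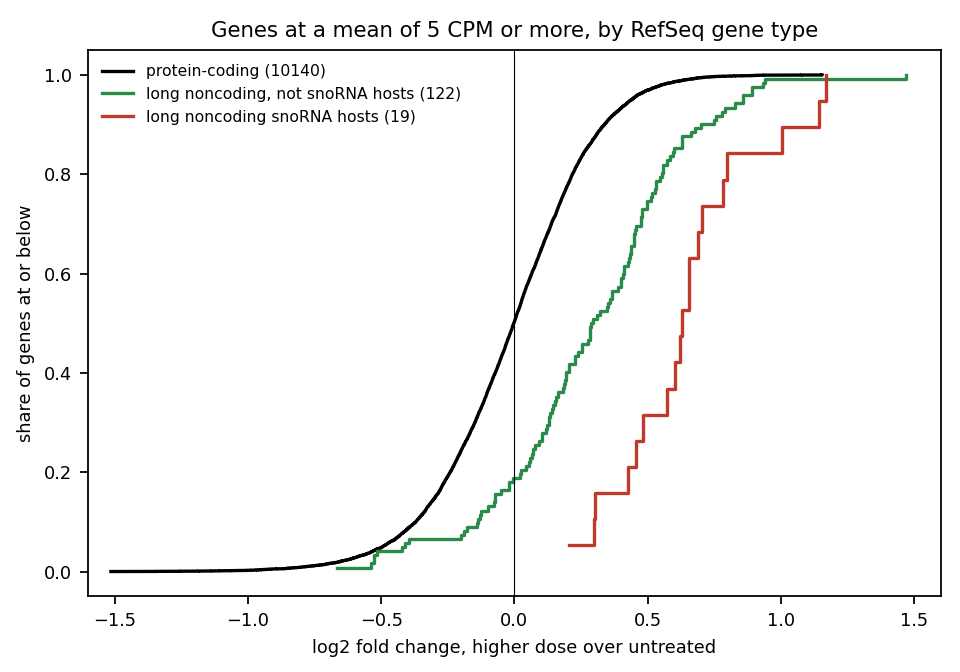
Cumulative share of genes at or below each log2 fold change (higher dose over untreated), for genes at a mean of 5 CPM or more, by RefSeq gene type. The curve of long noncoding genes other than snoRNA hosts lies to the right of the protein-coding curve, with a median of 0.29 against −0.002, and the snoRNA hosts lie further right.

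Families taken only from shared symbol letters gave a view that used no chosen list. Of 143 such families with at least 10 tested genes, 11 rose family-wide and 1 fell. All 11 tested TIMM genes rose, and COX genes rose in 18 of 20 cases, LSM genes in 10 of 12, NDUFA genes in 11 of 13 and COMMD genes, which take part in endosomal recycling, in 8 of 10. MRPS, MRPL, POLR, RPL, RPS and SNHG were the other 6. After the correction for length and GC content NDUFA (9 of 13), MRPL (33 of 49) and POLR (22 of 30) fell below 75%. The family that fell was that of the annexins (ANXA), calcium-dependent membrane-binding proteins, with 10 of 13 down, 0 up and a median of −0.27. Annexins took 0.401% and 0.389% of the reads in untreated cells and 0.33% and 0.326% at the higher dose. The next shares below 75% were those of NAA acetyltransferase subunits, with 8 of 11 up, ALDH dehydrogenases, with 10 of 14 down, and EXOC subunits of the exocyst, with 7 of 10 down, beside EXOSC subunits of the RNA exosome, with 7 of 10 up. MMP, LRP and ADAM genes each had 7 of 11 down and 0 up. After the correction 6 MMP, 6 LRP and only 4 ADAM genes were down, and the ADAM median went from −0.11 to −0.009. ALDH then had 8 of 14 down and EXOC 6 of 10.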

How the data were processed

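Read counts per gene were deposited by the authors for 6 libraries of ribosome-bound RNA. The submitters' processing notes name CASAVA 1.8.1, TopHat 1.4.0, HTSeq and the build hg19. Which gene annotation, counting mode and strand setting were used is not given in the sources used here. The 5 closing summary lines of each file (9.40% to 10.2% of its reads) were left out, which left 21619 genes. Genes with few reads were removed with filterByExpr, leaving 13548, and 8071 were not tested. The counts were scaled by TMM (factors 0.997 to 1.003) and fitted with the quasi-likelihood model of edgeR 4.0.16 in R 4.3.3, with 1 mean for each of the 3 groups in all 6 libraries and 3 residual degrees of freedom. The contrast was higher dose minus untreated, two-sided, with p-values adjusted by Benjamini-Hochberg over all tested genes. SE is the absolute log2 fold change divided by the square root of F. TMM makes values relative within a library. The fit was tested on simulated counts.

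Gene lists, motifs and members were chosen with earlier results of these data known. The genes named are the 12 largest rises and 12 largest falls by fold and the 10 largest gains and 10 largest losses in CPM, among genes not overlapping between groups. Up to 4 members of each list in its main direction and 2 in the other were added, without a condition on overlap. All of these were past the threshold at a mean of 5 CPM or more. The ligands, receptors, bait and cell line genes were named as well. Some genes that meet this rule are not reported here. Other genes named were chosen after their values were seen. These include MYC, GAS5, RPL3, RPLP1, RPL7L1, RPS4X, FTSJ3, FUCA2, LAMA1, LAMA2, SNHG4, TXNIP, TRIB2, the genes whose promoter windows are printed, the strongly changed genes of high abundance and the long noncoding examples. To correct for length and GC content, each library's deviation in log2 CPM from the mean of the 6 libraries was fitted with smooth curves (mgcv 1.9.3). The curves were in log length and GC content, and the fitted values entered a new edgeR fit as offsets. Motifs were searched in RefSeq promoters of GRCh38.p14, matched by symbol for 10787 tested genes (79.6%), and only lists with at least 80% of members matched are described.

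No pairing of the libraries by replicate letter was seen, as deviations of equal letters correlated at r = 0.08 over 10438 genes between untreated and higher dose. Counting noise in these deviations can hide a shared part, so pairing is not excluded. The letters name biological replicates, and whether cultures were grown on separate days is not given. Alternatives were DESeq2 1.42.0, other scaling factors, no filter on low counts, the 4 libraries alone, a replicate block, a test against 1.2-fold, the correction and leaving out each replicate.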

Additional observations from a re-analysis of the deposited data

How the results depend on the processing

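The count of 7626 genes stayed within 1.5 times under 11 alternatives, the fits without 1 replicate included. It was 5721 with DESeq2 (526 adjusted p-values were NA) and 7431 after the length and GC correction. With other scaling factors, no filter, the 4 libraries alone or the replicate block it was 7545 to 7635. The replicate block gave 7561, and its letters showed no pairing of the libraries. A test against a change of 1.2-fold left 2304 genes, 1084 up and 1220 down. With it 30 large subunit ribosomal proteins, 21 mitochondrial ribosomal proteins, 28 nucleolar factors, 7 subunits of RNA polymerases I and III, 5 genes each of complexes II to IV and of ATP synthase, 85 long noncoding genes rose, and 25 lysosomal and 10 long noncoding genes fell. With DESeq2 95 long noncoding genes rose and 10 fell. None of the 45 lists with a median beyond 0.1 changed sign under any of the 12 alternatives. After the length and GC correction IRS1 (0.0824) and IRS2 (0.121) changed sign. TRIB2 changed sign with upper quartile factors (−0.0171). Without 1 replicate, genes that had not passed spanned both signs, EPCAM from −0.14 to 0.10, MYC from −0.0605 to 0.0199, SNHG4 from −0.44 to 0.16, TRIB2 from −0.0214 to 0.0332 and TXNIP from −0.0486 to 0.0139. Calls were lost under DESeq2 and in at least 1 fit without a replicate for CS, FUCA2, FTSJ3, IDH3A, MPHOSPH10, SAMM50, SESN1, BCL2L11, LAMA1 and LAMA2, the last pair with large folds at under 2 CPM. At 2 libraries a group, the low spread lets small changes pass, and the precision covers these cultures only. Genes with few reads could pass only with large changes.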
